A study of Homo sapiens with 9 samples.

Results

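Gene deserts are long stretches of the genome without a protein-coding gene start. ATAC-seq peak regions were placed in deserts when their midpoint lay over 200 kb from every protein-coding transcription start site of the GRCh37 annotation. The 50000 strongest peaks of each library, ranked by the −log10 p of the peak caller, were merged across 9 libraries wherever they overlapped by at least 1 bp. Of 106131 merged regions, 13348 (12.6%) lay in deserts. The remaining 92783 regions, called nearer regions here, served as the comparison. Because 14536 of them lay within 1 kb of a start site, where promoters are, the 78247 nearer regions over 1 kb from a start site were used as a further comparison.

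The cells were K562, a human chronic myeloid leukaemia line with erythroid features. The 3 genotypes were the parental line without a STAG2 mutation (wild type), a CRISPR-Cas9 edited line heterozygous for STAG2 R614* (+/-) and a CRISPR-Cas9 edited line homozygous for it (-/-), with 3 libraries each and 1 line per genotype. Per the labels, trypsin was used to detach the homozygous cells, which grew attached, so genotype, line and growth form cannot be told apart. In ATAC-seq the Tn5 transposase cuts and tags open DNA, and 50000 cells went into each replicate. Nothing in the labels says that replicates came from separate cultures, so p-values measure only the spread between these libraries. The titles of the 3 homozygous libraries call their line null for STAG2, while their genotype tag gives R614* -/-, which is used here. The genotypes are taken from the labels, since the mutated base cannot be seen in peak lists.

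STAG2 belongs to cohesin, a ring of proteins that forms DNA loops and gathers where CTCF is bound. Gene deserts are known to hold enhancers that reach distant genes through such loops, often genes for developmental regulators at the desert edge. They also hold genes for long non-coding RNAs and long introns of very large genes. An open region far from genes can therefore be an enhancer, a CTCF site or the start of a non-coding transcript, and peak lists alone do not say which.

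Some lists overlap more than others. Identical positions made up 46.0% of the intervals in the pair of wild type replicate 3 and heterozygous replicate 1, as a share of the shorter list, and 23.2% in wild type replicates 1 and 2. The other 34 of 36 pairs shared between 0.223% and 1.17%. Each linked pair was therefore also counted as 1 source, which leaves 7 sources, and results are given without these libraries where that changes them. The full lists held 181407 to 319697 peaks on chromosomes 1 to 22 and X, the −log10 p at rank 50000 was 4.95 to 6.73, and the read depth is unknown. Among 9 erythroid and megakaryocytic marker genes, 5 had a region within 1 kb of a start site in all 9 libraries, and GATA1 and KLF1 had none among the strongest peaks. None of 3 T cell, 3 B cell and 2 liver markers had one in all 9, but the T cell gene CD3D and the liver gene APOB each had one in 7 libraries, as did the erythroid gene EPOR.

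The sequences below are those of the strongest desert regions that differed between genotypes. Each line gives 121 bases around the summit of the strongest peak, read from the GRCh37 reference on the forward strand, 5′ to 3′. The first set holds the 3 strongest desert regions, ranked by their lowest strength in the libraries that have them, that were present in the 3 homozygous libraries and absent from the other 6. Capitals mark matches to the AP-1 consensus TGANTCA, bound by FOS and JUN proteins.
LINC02227 intron, chr5:157809605-157809725: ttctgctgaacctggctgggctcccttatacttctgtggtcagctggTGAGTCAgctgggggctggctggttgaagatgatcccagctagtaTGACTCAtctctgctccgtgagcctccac
TGFB2 side, chr1:218758980-218759100: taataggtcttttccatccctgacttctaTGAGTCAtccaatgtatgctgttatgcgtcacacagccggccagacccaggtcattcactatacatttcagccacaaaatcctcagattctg
TBC1D5 intron, chr3:18163875-18163995: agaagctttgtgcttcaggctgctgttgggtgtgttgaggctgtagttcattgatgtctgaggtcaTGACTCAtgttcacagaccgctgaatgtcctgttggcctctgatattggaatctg

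The second set holds the 3 strongest desert regions missing only from the homozygous libraries. Capitals mark matches to a GATA factor consensus, AGATAA or TGATAA on either strand. These strings do not mark the class: in 500 bp, 54.7% of the 276 regions missing only from homozygous libraries and 57.6% of the 231 present only there held one, against 57.6% and 54.5% in the sequence 2 kb away.
REEP3 side, chr10:66627492-66627612: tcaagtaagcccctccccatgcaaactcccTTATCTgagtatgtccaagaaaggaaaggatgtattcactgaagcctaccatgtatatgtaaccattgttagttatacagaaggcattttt
MRPL39 side, chr21:25294371-25294491: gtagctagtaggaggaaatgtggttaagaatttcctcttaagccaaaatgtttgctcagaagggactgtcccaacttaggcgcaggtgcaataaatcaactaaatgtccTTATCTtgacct
MAP2 side, chr2:209850563-209850683: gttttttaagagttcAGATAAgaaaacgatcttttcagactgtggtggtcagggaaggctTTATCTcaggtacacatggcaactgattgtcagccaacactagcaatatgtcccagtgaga

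The next sequences show CTCF motifs, because cohesin gathers there. These regions were chosen after their values were seen, as the strongest with a motif at the summit in their class. The regions beside QKI and CCSER2 were found in all 9 libraries, and those beside PTGER3 and B3GAT1 were missing only from the homozygous libraries. Capitals mark the CTCF consensus.
QKI side, chr6:164377746-164377866: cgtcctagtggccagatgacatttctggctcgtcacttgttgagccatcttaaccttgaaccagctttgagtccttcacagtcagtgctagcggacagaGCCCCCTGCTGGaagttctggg
CCSER2 side, chr10:86425810-86425930: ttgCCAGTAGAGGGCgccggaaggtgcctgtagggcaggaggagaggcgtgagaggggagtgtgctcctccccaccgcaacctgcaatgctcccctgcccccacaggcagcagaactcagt
PTGER3 side, chr1:71210995-71211115: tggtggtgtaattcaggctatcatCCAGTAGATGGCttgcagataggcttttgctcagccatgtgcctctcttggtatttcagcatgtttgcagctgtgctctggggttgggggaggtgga
B3GAT1 side, chr11:134596026-134596146: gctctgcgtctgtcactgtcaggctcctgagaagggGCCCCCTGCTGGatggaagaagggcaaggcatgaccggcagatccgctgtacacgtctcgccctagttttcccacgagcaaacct

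Among the 50000 strongest peaks per library, open regions were sparse in deserts. In the full lists, deserts held 22.5% to 25.3% of wild type, 19.2% to 22.6% of heterozygous and 16.5% to 19.1% of homozygous peaks. The following values are for regions of the strongest peaks. Deserts made up 708.3 of 2835.7 Mb of known sequence (24.98%) but held 12.6% of the regions, which is 18.8 regions per Mb against 43.6 per Mb nearer to genes. The median distance to a start site was 362 kb and the longest was 2701 kb. Over 500 kb away lay 4279 desert regions (32.1%), and over 1 Mb away lay 1211 (9.07%). Desert regions followed each other at a median of 11.6 kb, and 85.3% had another desert region within 50 kb. Against nearer regions over 1 kb from a start site, desert regions had a lower median GC content of 45.0% against 46.6%.

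The label was checked against the annotation, and desert here means far from protein-coding starts, not empty of genes. Of the desert regions, 1924 (14.4%) lay in the body of a protein-coding gene, most often in GRID1, a glutamate receptor-like gene, with 38 regions. A further 4337 (32.5%) lay in a long non-coding RNA gene only, and 7087 (53.1%) lay outside both. Immunoglobulin and T cell receptor genes carry their own annotation class and are not counted as protein-coding, and 141 desert regions (1.06%) lay within 10 kb of one. Large assembly gaps of at least 1 Mb, mostly centromeres, lay within 1 Mb of 553 desert regions (4.14%). The rule's edge was gradual: of 690 regions at 190 to 200 kb, 11.7% were found in all 9 libraries, and of 678 regions at 200 to 210 kb, 10.6%.

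The 13348 regions fell into 1130 stretches between neighbouring protein-coding start sites. The 198 stretches with at least 20 regions held 54.9% of them. The stretch with most, 108 regions, ran from FAM72B to PPIAL4G on chromosome 1 and spans the centromere. It had 49, 50 and 55 regions in wild type, 56, 56 and 51 in heterozygous and 53, 57 and 57 in homozygous libraries, which overlap. The stretch from NUDT12 to EFNA5 on chromosome 5, with 96 regions, had 49, 49 and 34, then 26, 33 and 33, then 22, 18 and 18 in the same order of genotypes. B3GALT2 to KCNT2 on chromosome 1, with 94 regions, had 38, 32 and 34, then 33, 41 and 42, then 19, 22 and 13. In both of these the homozygous counts lay below the other 6. MCTP2 to NR2F2 on chromosome 15, with 92 regions, had 46, 46 and 34, then 31, 45 and 38, then 30, 36 and 30, and the genotypes overlapped. NR2F2 encodes the nuclear receptor COUP-TFII. The stretch from TMEM121 to the end of chromosome 14, also with 92, covers the immunoglobulin heavy chain locus, so it is a desert by the rule only. Its counts of 56, 58 and 61, then 60, 55 and 55, then 41, 37 and 30 were again lowest in the homozygous libraries.

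Within libraries, desert regions were weaker than nearer ones. Strength is given as the percentile of the region's strongest peak among the library's 50000, where 100 is the strongest. The median percentile of desert regions was 43.4, 42.4 and 42.9 in wild type, 43.4, 42.5 and 43.5 in heterozygous and 41.8, 42.4 and 44.7 in homozygous replicates 1 to 3. In every library it was below that of nearer regions, which ranged from 50.8 to 51.6. The mean difference was −8.27 ± 1.05 percentile points (SD, n = 9; lower in 9 of 9 libraries, exact paired two-sided sign-flip permutation p = 0.00391, the smallest possible). Against nearer regions over 1 kb from a start site the difference shrank to −2.12 ± 0.859 points, still lower in 9 of 9 libraries (exact paired permutation p = 0.00391). Fold enrichment over local background, the authors' value per peak, had a median of 5.70 ± 0.368 in desert and 5.79 ± 0.370 in nearer regions over 1 kb away (SD, n = 9; lower in 8 of 9, exact paired permutation p = 0.00781).

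In the strongest 10% of a library's peaks lay 8.04% ± 0.558 of desert regions, against 10.4% of all nearer regions and 7.75% ± 0.540 of those over 1 kb from a start site (SD, n = 9). Against all nearer regions the difference was −2.36 points, lower in 9 of 9 libraries (exact paired permutation p = 0.00391). Against those over 1 kb away it was 0.281 points and did not pass the threshold (exact paired permutation p = 0.0586). The 5 strongest desert regions found in all 9 libraries lay in an intron of the long non-coding RNA gene ENSG00000285424 beside CDYL (chr6:4428031-4428541), 859 kb from TLE4 (chr9:83180401-83180904), in an exon of MIR663AHG (chr20:26188624-26190739), in an intron of ENSG00000258807 beside GALC (chr14:88237367-88237894) and 329 kb from FSTL5 (chr4:163414086-163414587). The CDYL region had a fold enrichment of 28.2, 28.4 and 27.4 in wild type, 28.0, 27.1 and 29.1 in heterozygous and 24.3, 24.3 and 26.2 in homozygous replicates. Its 3 homozygous values lay below the other 6. The FSTL5 region did the same, with 23.6, 23.7 and 28.0 in wild type, 26.9, 25.3 and 26.2 in heterozygous and 19.9, 19.3 and 21.0 in homozygous replicates. At the TLE4 region, which shares words of 24 bases with the mitochondrial genome, fold enrichment ran from 25.1 to 31.2 and the genotypes overlapped. The GALC region had 20.02, 22.2 and 19.6 in wild type, 18.6, 21.2 and 21.9 in heterozygous and 22.1, 20.3 and 25.9 in homozygous replicates, which overlap. The MIR663AHG region lay within 1 Mb of a large assembly gap. Its fold enrichments of 8.61, 8.38 and 8.41, then 8.43, 8.73 and 8.30, then 8.50, 8.35 and 9.10 overlapped too, although its −log10 p of 58.9 to 70.3 in the homozygous libraries lay above the other 6, at 49.0 to 56.7.

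The farthest desert regions open in all 9 libraries were chr4:33050439-33050956, 2325 kb from the start of PCDH7, and a pair in LINC02109 on chromosome 5, at 29191447 to 29192447 and 29114074 to 29115498, about equally far from the cadherin genes CDH6 and CDH9. At the PCDH7 region, fold enrichment was 9.37, 9.19 and 7.32 in wild type, 7.02, 7.48 and 8.11 in heterozygous and 11.0, 6.65 and 9.01 in homozygous replicates. These values overlapped between genotypes.

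Desert regions recurred less across libraries. In all 9 libraries were 1235 desert regions (9.25%), against 19.4% of nearer regions and 12.6% of those over 1 kb from a start site. In 1 library only were 5353 (40.1%), against 29.0% and 32.5%. Counted within each library, 25.4% ± 1.57 of its desert regions were found in all 9, against 29.8% ± 0.334 of its nearer regions over 1 kb away (SD, n = 9; lower in 8 of 9 libraries, exact paired permutation p = 0.00781). Homozygous replicate 3 was the exception, with 29.2% against 29.0%.

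Lower strength moved with this difference, so recurrence was also compared among regions of like strength. With a library's regions split at the 25th, 50th and 75th percentile, the share of desert regions found in all 9 libraries was 5.21%, 12.8%, 32.7% and 66.1% from the weakest to the strongest group. For nearer regions over 1 kb from a start site in the same groups it was 6.75%, 16.7%, 37.9% and 69.3%. The desert share was lower in 8 or 9 of 9 libraries in each group (exact paired permutation test, adjusted p = 0.00781 in each). Desert regions within 1 kb of the start of a long non-coding RNA recurred more: 142 of 607 (23.4%) were found in all 9 libraries, against 8.58% of the other 12741. Regions in protein-coding gene bodies (9.04%), in long non-coding RNA genes (9.89%) and outside both (8.92%) differed by under 1 point in this share.

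**Figure D1:**
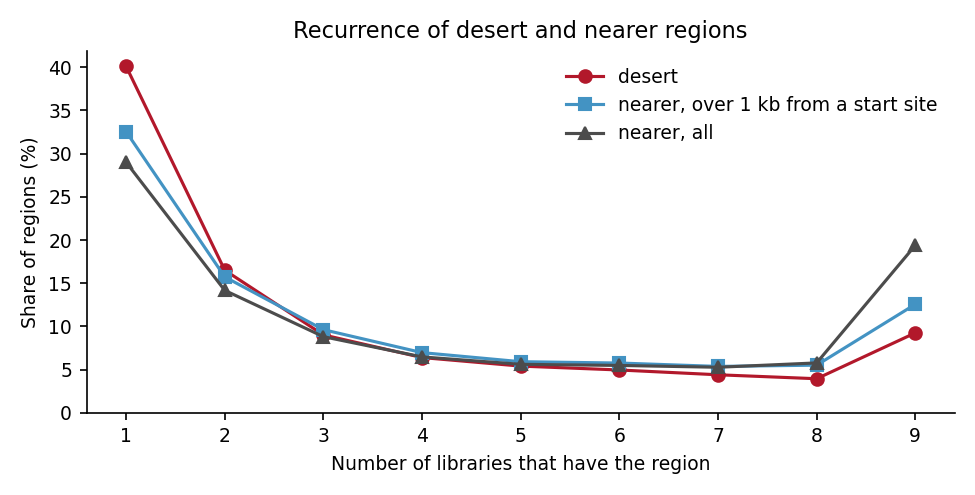
Share of regions (y axis, %) by the number of libraries that have them (x axis), for desert regions, all nearer regions and nearer regions over 1 kb from a start site. Desert regions lie highest at 1 library, at 40.1%, and lowest at all 9 libraries, at 9.25%.

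The homozygous libraries had fewer of their strong regions in deserts. The desert share of a library's regions was 10.6%, 10.4% and 10.1% in wild type, 10.1%, 10.2% and 9.97% in heterozygous and 9.71%, 9.73% and 8.60% in homozygous replicates 1 to 3. All 3 homozygous values lay below the other 6. The means were 10.3% ± 0.224, 10.1% ± 0.132 and 9.35% ± 0.645 (SD, n = 3 each; exact permutation test of the 3 genotypes, p = 0.0107). The homozygous mean fell by 0.992 points from wild type (exact permutation p = 0.1, the smallest possible for a pair), and heterozygous minus wild type was −0.232 points (exact permutation p = 0.3).

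Several choices bear on this difference. The p-values printed here beside homozygous minus wild type are of the test of the 3 genotypes, not of the pair. With lists that share intervals counted as 1 source, homozygous minus the others was −0.846 points (exact permutation p = 0.0286, the smallest possible). Without homozygous replicate 3, which had the lowest share, homozygous minus wild type was −0.619 points (exact permutation p = 0.0179). Without wild type replicate 1 it was −0.886 points, without wild type replicate 2 −0.979 points and without both wild type replicate 3 and heterozygous replicate 1 −1.11 points, and these values missed the threshold (exact permutation p = 0.0893, 0.0571 and 0.0571). When deserts were defined by the start sites of all annotated genes, non-coding ones included, the difference was −0.0256 points (exact permutation p = 0.529). At the same mix of GC content, in 10 equal classes, in every library, the shares were 10.2%, 10.1% and 9.48% (exact permutation p = 0.0357), and by sources the p was 0.0571. Without regions by immunoglobulin or T cell receptor genes the difference was −0.929 points (exact permutation p = 0.0107).

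**Figure D2:**
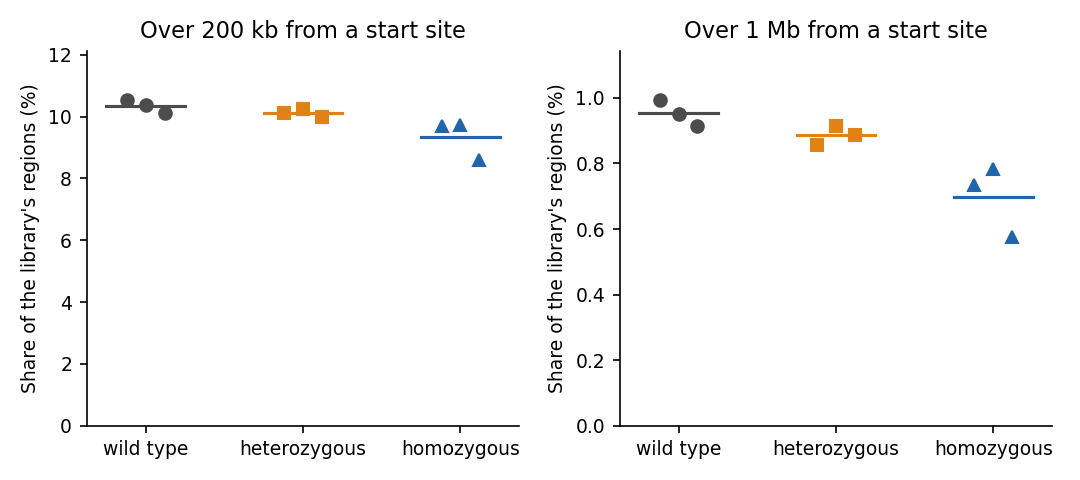
Share of each library's regions (y axis, %) over 200 kb (left) and over 1 Mb (right) from a protein-coding start site, by genotype. Points are libraries and bars are means of 3. The homozygous libraries, at 8.60% to 9.73% on the left and 0.575% to 0.784% on the right, lie below the other 6 in both panels.

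The difference was clearest far from genes. Regions over 1 Mb from a start site made up 0.995%, 0.952% and 0.915% of wild type, 0.856%, 0.914% and 0.888% of heterozygous and 0.734%, 0.784% and 0.575% of homozygous regions. The 3 homozygous values lay below the other 6, and the means were 0.954% ± 0.0397, 0.886% ± 0.0288 and 0.698% ± 0.109 (SD, n = 3 each; exact permutation p = 0.00357, adjusted over 7 distance bands 0.025). Between 500 kb and 1 Mb the means were 2.30%, 2.29% and 1.79% (exact permutation test, adjusted p = 0.0938), and between 200 and 500 kb 7.09%, 6.93% and 6.86% (adjusted p = 0.7). Homozygous minus wild type was −0.257 points over 1 Mb away, −0.510 points at 500 kb to 1 Mb and −0.225 points at 200 to 500 kb, so the loss was a larger share of the wild type value in the farther bands. At the same mix of chromosomes the over 1 Mb difference was −0.242 points, at the same mix of GC classes −0.220 points and without regions by large gaps −0.268 points. Over the 3 genotypes the exact permutation p was 0.00357, 0.00357 and 0.00714, unadjusted. The adjusted exact permutation p over the 7 bands was 0.1 with each source counted once and 0.1 without any 1 of the heterozygous libraries. By sources the unadjusted exact permutation p over 1 Mb was 0.0286, the smallest possible, so this band alone could not pass there. Leaving out wild type replicate 1, 2 or 3 gave 0.0625, 0.0875 and 0.05, and the 20000 strongest peaks gave 0.05, which is at the threshold and was not called. It was under 0.05 without any 1 of the homozygous libraries.

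The full lists, which hold weaker peaks too, gave a larger difference. Of all peaks in the list, 22.5%, 25.3% and 23.8% lay in deserts in wild type, 22.6%, 19.9% and 19.2% in heterozygous and 16.5%, 17.3% and 19.1% in homozygous libraries. The homozygous values again lay below the other 6, although homozygous replicate 3, with the longest list, came within 0.2 points of heterozygous replicate 3. The test over 3 genotypes gave an exact permutation p of 0.0107, and counting sources gave 0.0857. In wild type and homozygous libraries a longer list had a higher desert share, and the part of list length in the difference was not tested.

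Desert regions open in every library were weaker in the homozygous libraries, and so were nearer regions away from start sites. Across the 1235 desert regions found in all 9 libraries, the median percentile was 77.5, 78.2 and 77.0 in wild type, 76.7, 77.5 and 78.3 in heterozygous and 71.9, 73.3 and 73.1 in homozygous replicates. All 3 homozygous values lay below the other 6. The means were 77.6 ± 0.624, 77.5 ± 0.763 and 72.7 ± 0.761 (SD, n = 3 each; exact permutation p = 0.0357). The 17986 nearer regions found in all 9 libraries had means of 75.5, 75.4 and 75.2 (exact permutation p = 0.968). Desert minus nearer was 2.04 ± 0.575, 2.07 ± 0.499 and −2.46 ± 1.55 points in wild type, heterozygous and homozygous libraries (SD, n = 3 each). Homozygous minus wild type was −4.50 points, and the exact permutation test of the 3 genotypes gave p = 0.0357. The value depends on which nearer regions are compared. Of the 17986 nearer regions 8156 lay within 1 kb of a start site, and their means were 76.1 ± 0.260, 76.9 ± 0.638 and 79.4 ± 2.63 (SD, n = 3 each; exact permutation p = 0.0821). The 9830 over 1 kb away had means of 74.9 ± 0.147, 74.3 ± 0.382 and 71.0 ± 0.811, with the 3 homozygous values below the other 6 (SD, n = 3 each; exact permutation p = 0.00357). Against these, desert minus nearer was 2.64 ± 0.515, 3.21 ± 0.921 and 1.75 ± 1.24 points (SD, n = 3 each). Homozygous minus wild type was −0.887 points, and the test of the 3 genotypes did not pass the threshold (exact permutation p = 0.218, by sources 0.143). Against all nearer regions, with lists that share intervals counted as 1 source, homozygous minus all other sources was −4.58 points (exact permutation p = 0.0286). With the 20000 strongest peaks a value of −4.51 points missed the threshold (exact permutation p = 0.0571).

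Each desert band had a lower homozygous mean. Among regions in all 9 libraries, homozygous minus wild type was −4.56 points at 200 to 500 kb (905 regions), −4.59 points at 500 kb to 1 Mb (232 regions) and −6.05 points over 1 Mb away (98 regions). The exact permutation test of the 3 genotypes gave p = 0.025, 0.0286 and 0.0143. By sources the exact permutation p was 0.0286, 0.0571 and 0.0571. At 500 kb to 1 Mb, 2 of the 3 homozygous values lay below the other 6, and in the remaining bands all 3 did. Over all desert regions of a library, found elsewhere or not, no difference in the median percentile was detected, with means of 42.9 ± 0.459, 43.1 ± 0.554 and 43.0 ± 1.54 (SD, n = 3 each; exact permutation p = 0.943).

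**Figure D3:**
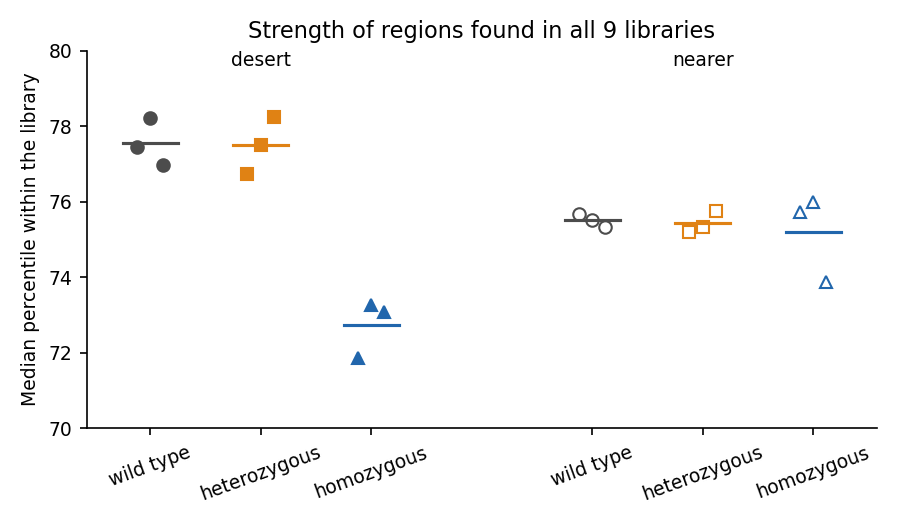
Median percentile within the library (y axis, from 70 to 80) of the regions found in all 9 libraries, for desert (filled) and all nearer (open) regions by genotype. Points are libraries and bars are means of 3. Homozygous desert points lie between 71.9 and 73.3, below the other desert points, while the nearer points overlap between genotypes.

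Single regions were called different when all 3 libraries of one genotype had them and 0 of the 3 of the other. Between homozygous and wild type, 782 of 11484 desert regions differed (6.81%), against a background of 6.22% over all regions. The direction was uneven: 281 were in homozygous libraries only (2.45%, background 2.75%) and 501 in wild type libraries only (4.36%, background 3.47%). The share in homozygous only was thus 35.9% of the desert calls, against 45.5% of nearer calls and 44.3% of those over 1 kb from a start site. Without wild type replicate 3 the counts were 381 and 1256, so the count moved by over 1.5 times and the direction stayed. Without both wild type replicate 3 and heterozygous replicate 1 they were 381 and 1260. Leaving out homozygous replicate 1, 2 or 3 gave 491, 487 and 465 in homozygous only, each over 1.5 times the 281, and 667, 656 and 642 in wild type only. A left-out library of either genotype loosens the rule, which raises these counts by itself.

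The imbalance was widest beyond 500 kb. Within 1 kb of a start site the direction was reversed, with 1.69% of regions in homozygous only and 1.19% in wild type only. At 1 to 10 kb, 2.83% were in homozygous only and 3.91% in wild type only. At 10 to 50 kb the shares were 2.95% and 3.84%, and at 50 to 200 kb 3.21% and 3.64%. From 1 kb on, the imbalance thus narrowed up to the desert limit. At 200 to 500 kb the shares were 2.87% and 3.89%, at 500 kb to 1 Mb 1.69% and 5.02%, and over 1 Mb 1.07% and 6.40%, which is 11 and 66 regions of 1032. Most calls were differences in rank. A weaker peak in the full list of at least 1 library of the other genotype lay at 86.8% of the 281 and 88.0% of the 501 regions. Among nearer regions it lay at 89.8% and 92.2%. Requiring no such peak left 37 desert regions in homozygous only and 60 in wild type only, against 239 and 219 nearer regions, where the direction turned. Over all tested regions this stricter rule gave backgrounds of 0.289% and 0.292%.

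**Figure D4:**
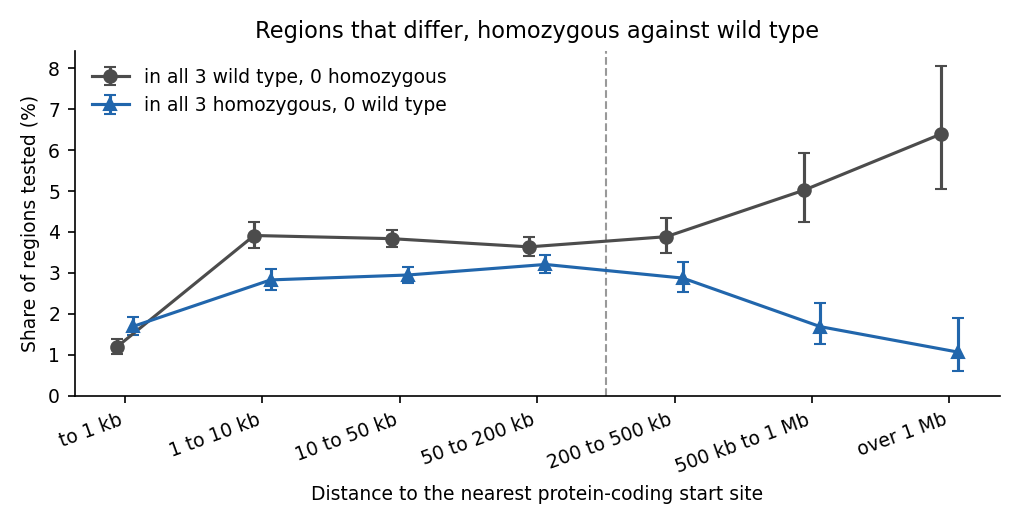
Share of tested regions (y axis, %) that were in all 3 wild type and 0 homozygous libraries (circles) or the reverse (triangles), by distance to the nearest protein-coding start site (x axis). Bars are 95% Wilson intervals, which cover counting error only, and the dashed line marks 200 kb. The curves part beyond 500 kb and reach 6.40% and 1.07% over 1 Mb.

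Heterozygous and wild type deserts differed at few regions. Of 9975 desert regions 105 differed (1.05%, background 0.937%), 44 in heterozygous only (0.441%, background 0.423%) and 61 in wild type only (0.612%, background 0.515%). All 105 had a weaker peak in the full list of the other genotype. This count rests on the lists that share intervals across these genotypes: leaving out wild type replicate 3 gave 1239, heterozygous replicate 1 gave 547, heterozygous replicate 2 gave 168 and both linked libraries gave 1754. Part of each rise follows from the looser rule with fewer libraries. Between homozygous and heterozygous, 973 of 11723 desert regions differed (8.30%, background 6.57%), 398 in homozygous only (3.40%, background 3.16%) and 575 in heterozygous only (4.90%, background 3.41%). Specific to the homozygous libraries against all other 6 were 507 desert regions (3.80%, background 3.37%). Of these 231 were present only there (1.73%, background 1.81%) and 276 missing only there (2.07%, background 1.56%). Without homozygous replicate 1 the total was 767 and without replicate 2 it was 770, with 394 present only in each case. The heterozygous libraries had 51 such regions (0.382%, background 0.252%), against backgrounds of 0.153% present only and 0.0989% missing only. The wild type libraries had 23, all present only there (0.172%, background 0.176% in either direction, 0.131% present only and 0.0452% missing only).

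Named regions show the size of these differences. The strongest region present only in homozygous libraries lay in an intron of LINC02227, 523 kb from the start of CLINT1 (chr5:157809388-157809915). Its fold enrichment was 9.95, 8.71 and 12.8 in homozygous replicates 1 to 3, at percentiles 93.8, 91.2 and 98.2, and its sequence above holds 2 AP-1 motifs. The full lists held a weaker peak there in 4 of the other 6 libraries. Beside TGFB2, the gene of a growth factor of the TGF-β family, chr1:218758790-218759621 had fold enrichments of 8.76, 7.13 and 9.91 in the homozygous replicates. In an intron of TBC1D5, chr3:18163680-18164201 lay 299 kb from SATB1, a chromatin organiser, with 8.68, 6.52 and 8.94. Both hold 1 AP-1 motif at the summit. By the wider call against wild type alone, a region beside ALG10 (chr12:34430738-34431254) reached 8.93, 15.3 and 13.2 in the homozygous replicates, but lies within 1 Mb of a large assembly gap.

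The strongest region missing only from homozygous libraries lay 1346 kb from the start of REEP3 (chr10:66626811-66627927). Its fold enrichment was 11.4, 11.1 and 10.4 in wild type and 10.2, 18.0 and 11.5 in heterozygous replicates. All 3 homozygous full lists held a weaker peak there. The region 1685 kb from MRPL39 (chr21:25293916-25295179) had 11.6, 11.3 and 9.28 in wild type and 8.94, 8.93 and 9.40 in heterozygous replicates. At the region 438 kb from MAP2, the gene of a neuronal microtubule protein (chr2:209850035-209850890), values were 12.3, 12.9 and 9.32 in wild type and 9.19, 12.2 and 11.1 in heterozygous replicates, and 0 of the 3 homozygous full lists had a peak. A region 327 kb from a start of the desmocollin gene DSC3 (chr18:28259195-28260037) had 11.0, 10.5 and 9.61 in wild type and 9.81, 11.99 and 6.22 in heterozygous replicates.

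Against the heterozygous libraries, the strongest gains in homozygous cells were the LINC02227 region, a region in ENSG00000284196 beside SPRY2 (chr13:80622833-80623358) and one in LINC01117 (chr2:177447536-177448723). All 3 heterozygous full lists held a weaker peak at this LINC01117 region, and 1 did at the SPRY2 region. The SPRY2 region had fold enrichments of 14.0, 10.7 and 13.9 in homozygous replicates and 5.16 and 6.77 in wild type replicates 1 and 2. The strongest losses were the REEP3 region, a DAB1 intron (chr1:58717275-58717792) and a region of ENSG00000291293 beside CBLB (chr3:106176085-106176621). All 3 homozygous full lists held a weaker peak at the DAB1 region, and 1 did at the CBLB region. The CBLB region holds 1 AP-1 motif at the summit. In wild type and not heterozygous libraries, an intron of LINC00924, 915 kb from NR2F2 (chr15:95953926-95954465), had 8.56, 9.95 and 7.87, and the homozygous replicates had 9.79, 7.01 and 8.33. Also in that class were regions beside CENPC (chr4:68165805-68167089) and ARAP2 (chr4:34336701-34337591). In heterozygous and not wild type libraries were an intron of LINC01122 (chr2:59269051-59269573), one of LINC01117 (chr2:177661393-177661937) and one of LINC02055 on chromosome 8 (chr8:137207683-137208206), all at percentiles of 75.7 or less.

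Some stretches held several losses, and clustering was not tested. The following stretches were singled out after their values were seen. Between REEP3 and LRRTM3 on chromosome 10, 80 desert regions numbered 35, 30 and 38 in wild type, 35, 49 and 42 in heterozygous and 22, 15 and 19 in homozygous libraries. Of 62 regions tested there, 12 were in wild type only, the most of any stretch, against 4.36% of all desert regions, and 1 was in homozygous only, while 52 of the 80 lay in the non-coding gene ENSG00000228566. Between BRINP3 and RGS18 on chromosome 1, the counts were 17, 14 and 18 in wild type, 21, 23 and 19 in heterozygous and 3, 2 and 1 in homozygous libraries. Between CDH2 and DSC3, genes of cell adhesion proteins, they were 13, 16 and 15, then 18, 24 and 23, then 6, 8 and 4. In each of these stretches the homozygous counts lay below the other 6. The opposite held in the non-coding gene ENSG00000286481 on chromosome 2, with 9, 10 and 12 in wild type, 11, 11 and 10 in heterozygous and 20, 20 and 20 in homozygous libraries. Copy number was not measured here.

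No chromosome passed the test, which 1 chromosome alone could not do. The share of a library's desert regions on each of 23 chromosomes gave 0 differences past the adjusted threshold (exact permutation test with Benjamini-Hochberg adjustment), with 5 under 0.05 unadjusted. Chromosome 22, with 33 desert regions, had the smallest possible p, 0.00357, which became 0.0821 when adjusted (exact permutation test). Its mean shares were 0.105%, 0.148% and 0.358% by genotype, with all 3 homozygous values outside the range of the other 6. The desert share within a chromosome had a lower homozygous than wild type mean on 18 chromosomes and a higher one on 5. With the genome's desert share held to the same mix of chromosomes, the means were 10.2%, 10.1% and 9.47% (exact permutation p = 0.0179).

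A list of 25 developmental regulator genes, many of them known to border deserts, was followed. Desert regions had one of these as the nearest protein-coding gene in 301 cases, at 24 of the 25 genes, and 24 regions were found in all 9 libraries. NR2F2 had most, 68 regions, followed by the oncogene MYC with 39 and SOX4, a transcription factor gene, with 20. Of 256 regions tested between homozygous and wild type, 11 were in homozygous only and 10 in wild type only (8.20%, background 6.22%). NR2F2 regions numbered 29, 30 and 18 in wild type, 20, 26 and 22 in heterozygous and 18, 23 and 22 in homozygous libraries, which overlap. MYC regions numbered 20, 15 and 21, then 20, 12 and 19, then 19, 17 and 15, which overlap too.

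A few of the listed genes, picked after their values were seen, did separate. SATB1 had 3, 3 and 3 regions in wild type, 1, 0 and 0 in heterozygous and 7, 6 and 6 in homozygous libraries. Of its 12 regions, 4 were present only in homozygous libraries, against 1.73% of all desert regions and a background of 1.81%. TSHZ3, a zinc finger gene, had 0 regions in the wild type and heterozygous libraries and 2, 1 and 2 in the homozygous ones. MEIS1, a homeobox gene of blood progenitors, went the other way, with 3, 5 and 8 in wild type, 8, 2 and 4 in heterozygous and 1, 1 and 1 in homozygous libraries. LINC02934, a long non-coding gene on chromosome 2 singled out after its values were seen, had 12, 14 and 17, then 17, 14 and 15, then 4, 3 and 3. The counts of these genes are small and were given no test.

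Sequence motifs were searched on both strands within 50 bp of each summit, with the same search 2 kb downstream as background. A match describes the sequence and does not show binding. The AP-1 consensus TGANTCA lay at 8.48%, 8.33% and 6.78% of desert summits in wild type, 6.77%, 7.25% and 7.04% in heterozygous and 10.8%, 10.4% and 13.3% in homozygous replicates. The 3 homozygous values lay above the other 6, and the means were 7.86% ± 0.938, 7.02% ± 0.237 and 11.5% ± 1.58 (SD, n = 3 each; exact permutation p = 0.0107, adjusted over 6 motifs 0.0321). The background was 3.43%, 3.25% and 3.46%, and 8.94% of all regions had the motif.

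The RUNX consensus TGTGGT moved the other way. It lay at 14.2%, 14.6% and 16.3% of wild type, 17.1%, 16.5% and 16.8% of heterozygous and 13.6%, 12.5% and 12.8% of homozygous desert summits. The homozygous values lay below the other 6, and the means were 15.01% ± 1.12, 16.8% ± 0.333 and 13.0% ± 0.560 (SD, n = 3 each; exact permutation p = 0.00357, adjusted 0.0214). Its background was 7.38%, 7.85% and 7.52%. The CTCF consensus lay at 4.25%, 4.54% and 4.01% of wild type, 4.29%, 4.35% and 4.20% of heterozygous and 3.52%, 3.31% and 3.47% of homozygous desert summits. The homozygous values lay below the other 6 here too, but the adjusted p missed the threshold (exact permutation p = 0.0321, adjusted 0.0643), and with deserts defined at 500 kb the difference was 0.0135 points. The background of CTCF was at most 0.0336%.

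GATA, ETS and TEAD consensus strings did not pass the threshold (exact permutation test, adjusted p = 0.188, 0.307 and 0.21). Left-out wild type libraries changed some calls of the test of the 3 genotypes. Without replicate 3, GATA and CTCF passed (exact permutation test, adjusted p = 0.0107 and 0.0268). Homozygous minus wild type was then −1.44 points for GATA and −0.961 points for CTCF. Without replicate 2, CTCF passed (exact permutation test, adjusted p = 0.0321), with −0.696 points. These p-values do not test homozygous against wild type alone. GATA strings, AGATAA or TGATAA, lay at 14.0%, 11.6% and 13.5% of desert summits by genotype, no more than their background of 14.3%, 14.9% and 14.0%. Neither AP-1 nor RUNX kept an adjusted p under the threshold with each source counted once, at 0.0857 and 0.114, with deserts defined at 500 kb, at 0.139 and 0.182, or when 1 heterozygous library was left out, at 0.05 to 0.0786 for each. By sources the unadjusted exact permutation p was 0.0286 for AP-1, the smallest possible, and 0.0571 for RUNX. There no motif can pass after adjustment unless most of the motifs reach the smallest possible p, so that setting cannot decide. AP-1 also lost it without wild type replicate 1, at 0.0643 (exact permutation tests). The genotype difference in deserts did not differ from that in nearer regions after adjustment. For desert minus nearer, homozygous minus wild type was −1.16 points for RUNX (exact permutation p = 0.3 for the pair) and 0.0132 points for AP-1. The exact permutation test of the 3 genotypes gave p = 0.025 for RUNX (adjusted 0.15) and 0.7 for AP-1 (adjusted 0.8). Against nearer regions over 1 kb away, desert minus nearer for AP-1 was −1.81, −1.87 and −2.96 points by genotype, with all 3 homozygous values below the other 6. Homozygous minus wild type was −1.15 points for AP-1 and −1.10 points for RUNX (exact permutation p = 0.1 and 0.3 for the pair). The test of the 3 genotypes gave p = 0.0357 and 0.0286 (exact permutation test, both 0.107 adjusted).

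**Figure D5:**
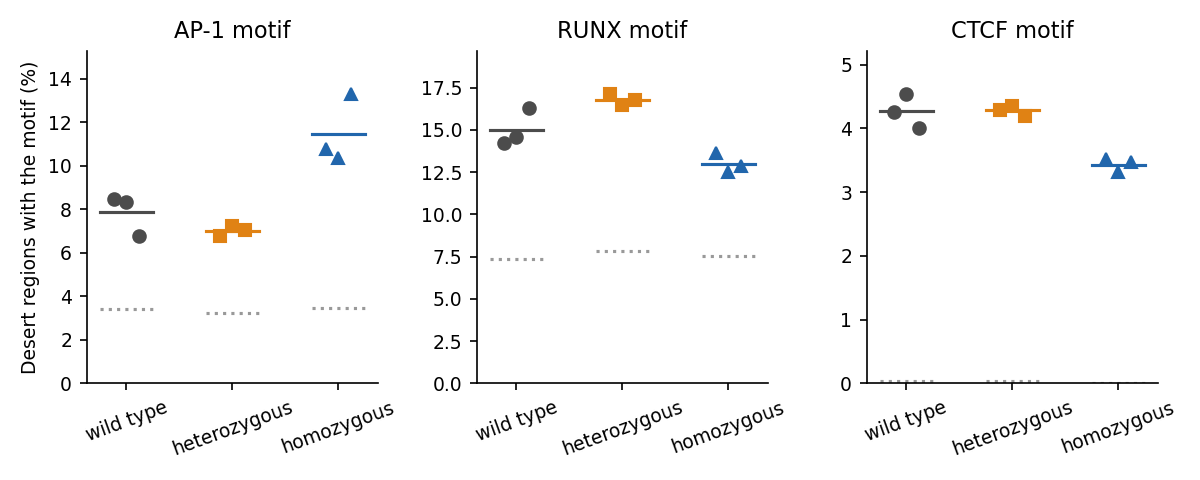
Share of desert regions with a motif within 50 bp of the summit (y axis, %), for AP-1, RUNX and CTCF by genotype. Points are libraries, solid bars are means of 3 and dotted lines are the same search 2 kb downstream. Homozygous points lie above the other 6 for AP-1, at 10.4% to 13.3%, and below them for RUNX and CTCF.

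Motifs also told desert from nearer regions. RUNX lay at 14.9% ± 1.76 of desert and 10.0% ± 0.627 of nearer summits, higher in 9 of 9 libraries by 4.89 points (SD, n = 9; exact paired permutation test, adjusted p = 0.00469). Against nearer regions over 1 kb from a start site the RUNX difference was 3.05 points (exact paired permutation test, adjusted p = 0.0117). The difference lay in regions of intermediate recurrence. Among desert regions found in 2 to 8 libraries 17.4% ± 2.31 had the motif at the summit, against 12.5% ± 1.04 of nearer regions over 1 kb away (SD, n = 9). Among those found in all 9 libraries the shares were 10.4% and 10.8%.

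The CTCF motif lay at 3.99% of desert and 2.97% of nearer summits, a difference of 1.02 points (exact paired permutation test, adjusted p = 0.00469), but of 0.201 points against nearer regions over 1 kb away (adjusted p = 0.0516) and −0.347 points among the 100000 strongest peaks. AP-1 was lower in deserts than in nearer regions over 1 kb away, at 8.79% against 11.0% (exact paired permutation test, adjusted p = 0.0117, lower in 9 of 9). Against all nearer regions the AP-1 difference was −0.168 points. It was 1.77 points among the 20000 strongest peaks and 2.42 points in 500 bp around the midpoint. ETS, a motif of promoters, lay at 0.145% of desert and 0.635% of nearer summits, lower in 9 of 9 libraries (exact paired permutation test, adjusted p = 0.00469).

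In 500 bp around the midpoint, the classes of changed desert regions differed in motifs. Of the 231 desert regions that only homozygous libraries had, 103 held an AP-1 string (44.6%, 95% Wilson interval 38.3 to 51.04). Of the 276 missing only there, 62 did (22.5%, 17.9 to 27.7), against 22.5% of all desert regions. A CTCF motif was found in 1 of the 231 (0.433%, 0.0765 to 2.41) and in 19 of the 276 (6.88%, 4.45 to 10.5), against 3.85% of all desert regions. The CTCF share also differed with recurrence, at 1.12% of desert regions found in 1 library and 8.18% of those in all 9. By definition the 276 were found in more libraries than the 231. The part of recurrence in their CTCF difference was not tested. A RUNX string lay in 34.6% of the 231 and 41.3% of the 276, against 37.2% and 29.7% in the sequence 2 kb away. In nearer regions over 1 kb away the shares were 51.5% and 17.8% for AP-1 and 0.825% and 8.27% for CTCF. Of such nearer regions found in all 9 libraries, 6.72% held a CTCF motif. Wilson intervals describe counting error alone, since regions do not replicate a genotype. The CTCF-bearing region in LINC01788 beside PTGER3 stood at percentiles of 39.0 to 58.4 in the wild type and heterozygous libraries and that beside B3GAT1 at 30.6 to 72.8, well below the 94.3 to 99.9 of the QKI and CCSER2 regions that all 9 libraries had. The full lists held a weaker peak beside B3GAT1 in all 3 homozygous libraries and beside PTGER3 in 2 of the 3.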

How the data were processed

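Peak lists of 9 ATAC-seq libraries were used. Per the submitters' processing notes, cutadapt, Bowtie2 2.2.9, Picard and MACS2 2.1.0 were used with hg19 (GRCh37), and their settings are not given in the sources used here. Whether reads were shifted for the Tn5 offset is not given either. The deposited lists hold 1 interval per line with the authors' fold enrichment (a linear ratio), −log10 p and −log10 q, and other columns not used as measurements. Intervals are mostly windows of 500 bp, and the summit was taken as 250 bp from the start. The deposited summit offsets put it elsewhere. Within 50 bp of the middle, 0.990% to 1.58% of 500-bp intervals held a CTCF motif, against 0.0690% to 0.124% at the offset. The point 250 bp from the start was therefore kept. In longer intervals this point lies before the middle, and its fit was not checked there. Longer intervals hold joined windows with averaged values, which can lower their rank. The lists hold no read counts, so no count model was fitted.

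The 50000 peaks with the highest −log10 p per library were merged at 1 bp overlap. Start sites were the 78394 of protein-coding transcripts in GENCODE release 44 lifted to GRCh37. Coordinates count from 1. Members, lists, motifs and tests were chosen with earlier results of these data known. Named regions follow a rule: the 5 strongest and 3 farthest in all 9 libraries, the 3 strongest per comparison and direction, the 5 fullest stretches and counts at 25 listed genes. Other named items are said to be chosen after their values were seen.

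Genotypes were compared by an exact permutation test over 280 assignments of libraries (smallest p 0.00357), and desert with nearer regions by an exact paired sign-flip test over 512 patterns. Unless a pair or sources are named, a genotype p-value is of the 3 genotypes, also beside a value of homozygous minus wild type. By sources, homozygous sources were compared with all others. Families were adjusted by the Benjamini-Hochberg method. Scripts were tested on simulated lists. Same-numbered replicates did not deviate together: 1 of 9 correlations of deviations from the group means was over 0.1, from −0.274 to 0.131. Alternatives covered the number of peaks, the desert limit, start sites, overlap, motif window, GC and chromosome mix, linked lists and left-out libraries. Python 3.11.15, numpy 2.4.6, pandas 2.3.3, scipy 1.17.1 and pysam 0.24.0 were used.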

Additional observations from a re-analysis of the deposited data

Results flagged for a closer look

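The strength of desert relative to nearer regions, over regions found in all 9 libraries, differed between genotypes. Homozygous minus wild type was −4.50 percentile points (exact permutation p = 0.0357 over the 3 genotypes), with desert regions above nearer ones in the 6 wild type and heterozygous libraries and below them in the 3 homozygous libraries. Against nearer regions over 1 kb from a start site, which were weaker in homozygous libraries too, homozygous minus wild type was −0.887 points (exact permutation p = 0.218). No cause was tested.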

How the results depend on the processing

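The lists give no depth, the lists of linked libraries are not independent, and each pairwise test of 3 against 3 cannot go below 0.1. Genotype p-values in this section are of the 3 genotypes, not of the pair whose difference is printed. The desert share, homozygous minus wild type, was −0.0256 points with the start sites of all annotated genes, −1.11 without both linked libraries and −1.18 to −0.619 when 1 library was left out. It was over 1.5 times larger with more peaks, −2.22 with 100000 (exact permutation p = 0.0464) and −6.35 with all peaks (exact permutation p = 0.00714). The median strength over all desert regions, homozygous minus wild type, was not called. It ranged from −0.890 to 0.628 when 1 library was left out and was −1.57 with 20000 peaks. With 100000 peaks it was 7.18 (exact permutation p = 0.0179). By sources, homozygous minus all other sources was −0.0466. In regions of all 9 libraries, desert minus nearer was −4.51 with 20000 peaks (exact permutation p = 0.0571) and −0.887 against nearer regions over 1 kb from a start site (exact permutation p = 0.218).

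Replicate numbers did not pair the samples. The replicate block left the desert share at −0.992 (exact permutation p = 0.0278), and ended the call for the strength in all 9 libraries, −4.82, and for its difference from nearer regions, −4.50 (exact permutation p = 0.111 for both). It left 0 of 6 motifs and 0 of 7 distance bands called. The smallest p it can give is 0.0278, so none can pass after adjustment unless most of the motifs or bands reach it.

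The 2 motifs called became 0 by sources, with 500 bp around the midpoint, with a desert limit of 500 kb and with 100000 peaks, and 0 to 4 when 1 library was left out. The 1 band called became 0 by sources, 0 with 20000 peaks and 0 to 2 when 1 library was left out. By sources, none can pass after adjustment unless most of the motifs or bands reach the smallest possible p, so 0 called cannot decide there. The share of desert regions in every library was 7.71% with a limit of 500 kb, 8.10% with 20000 peaks, 4.37% with 100000 peaks and 9.50% to 11.1% when 1 library was left out. These alternatives test other regions or fewer samples.

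Counts of differing desert regions are given in the order absence from the full list, 20000 peaks, 100000 peaks, all peaks. Leaving out a library of a compared genotype loosens the rule, which raises counts by itself. Homozygous against wild type gave 97, 288, 1465 and 5392, with 1641 without both linked libraries and 782 to 1637 without 1 library. Heterozygous against wild type gave 0, 35, 240 and 1564, with 1754 and 105 to 1239. Homozygous against heterozygous gave 186, 346, 1538 and 3044. Specific to homozygous libraries were 55, 181, 782 and 1283, with 532 to 770 without 1 library.

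Homozygous minus wild type became 0.0135 points for CTCF with a limit of 500 kb. For GATA it became 0.0522 in 500 bp and −1.44 to 0.306 when 1 library was left out. For ETS it became −0.0205 with 20000 peaks, and for TEAD −0.129 with 20000 and −0.0182 with 100000 peaks. By sources GATA had 1.02 points, but that value is homozygous minus all other sources, heterozygous ones included. Desert minus nearer became −0.347 for CTCF with 100000 peaks, 2.42 for AP-1 in 500 bp and 1.77 with 20000 peaks, and −0.918 for GATA against nearer regions over 1 kb from a start site. The cause of these changes was not tested.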
